A study of Mus musculus with 8 samples.

Results

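The genes described here are 6 fibroblast growth factors (FGFs), *Fgf1*, *Fgf2*, *Fgf7*, *Fgf9*, *Fgf10* and *Fgf18*, and the 4 FGF receptor genes, *Fgfr1*, *Fgfr2*, *Fgfr3* and *Fgfr4*. They were chosen by gene symbol and joined by Entrez ID to the read counts, where all 10 were found among 27179 counted genes. RNA-seq was performed on whole uteri of mice at postnatal day 10 (PD10), the age at which glands start to form from the luminal epithelium. Controls were *Ezh2* f/f mice, which carry floxed *Ezh2* alleles and no Cre, and cKO mice were *Ezh2* f/f; Acre, in which the same floxed alleles were combined with *Amhr2*-Cre, with 4 libraries per genotype. EZH2 is the enzyme that places the repressive histone mark H3K27me3. *Amhr2*-Cre acts in cells derived from the mesenchyme and is not meant to delete *Ezh2* in the epithelium, and controls without Cre do not account for Cre itself. In whole uterus, fewer cells of a type and less RNA per cell cannot be told apart.

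Libraries held between 25287141 and 36685807 counts assigned to genes. *Ezh2* itself stood at 45.0 ± 8.70 CPM (read counts scaled to library size) in controls and 36.8 ± 4.41 CPM in cKO uteri (SD, n = 4), with overlapping groups and an edgeR adjusted p of 0.247, so the gene-level count, which includes exons outside the floxed part, did not separate the genotypes. Markers of fat summed to 13.4 to 16.3 CPM in controls and to 99.8, 207, 101 and 16.5 CPM in cKO replicates 1 to 4, so that cKO replicate 4 stood close to the controls. The epithelium list was measured in full, with 14 of 14 markers tested and summed levels of 1515 to 1790 CPM in controls and 1661 to 2059 CPM in cKO uteri. The 11 stroma markers (10167 to 13280 against 11984 to 15454 CPM) and the 9 smooth muscle markers (7885 to 10042 against 8730 to 9913 CPM) were also all tested, which fits the labelled tissue.

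FGFs are secreted proteins that bind receptor tyrosine kinases together with heparan sulfate, and the occupied receptor signals through the adaptor FRS2 and RAS. In many organs FGF7 and FGF10 are made by mesenchyme and act on an epithelial splice form of FGFR2, whereas FGF9 and FGF18 act mainly on receptor forms of the mesenchyme. In the adult uterus, stromal FGFs drive epithelial proliferation, and the stromal factor HAND2 restrains their expression under progesterone. The counts used here are sums over a whole gene and do not separate these splice forms.

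To set the genes side by side, CPM was divided by the length in kilobases of each gene's exons. On this scale the levels in controls ran over a 109-fold range, from *Fgfr2* at 64.8 CPM per kb to *Fgfr4* at 0.593 CPM per kb. *Fgfr1* followed *Fgfr2* at 22.3 CPM per kb. The most abundant ligand per kb was *Fgf18* at 9.51 CPM per kb, ahead of *Fgf1* at 4.74, *Fgf10* at 3.77, *Fgf7* at 3.08, *Fgf9* at 2.31 and *Fgf2* at 1.14 CPM per kb, while *Fgfr3* stood at 1.01 CPM per kb. Before division by length, *Fgf18* (11.3 CPM) lay below *Fgf1* (24.6 CPM) and *Fgf10* (15.5 CPM) in controls. Its place thus depends on the GENCODE lengths, and the annotation used for counting is not given. Over the 4 control libraries the ranges overlapped between *Fgf1* and *Fgf10*, *Fgf10* and *Fgf7*, *Fgf7* and *Fgf9*, and *Fgf2* and *Fgfr3*, so these neighbours were not separated beyond their spread. All other neighbours in the order had ranges that did not overlap. In cKO uteri the order of means was the same except that *Fgfr3* (1.29 CPM per kb) stood above *Fgf2* (1.20 CPM per kb).

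**Figure D1:**
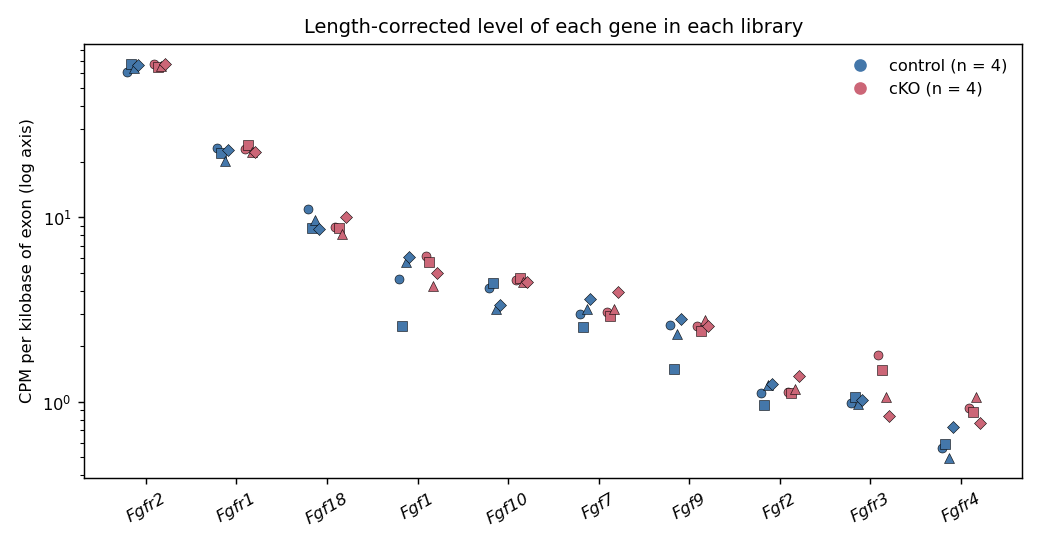
Each point is 1 library, with CPM per kilobase of exon on a log axis and the genes ordered by their control mean, controls in blue and cKO in red (n = 4 each, marker shape gives the replicate). *Fgfr2* and *Fgfr1* lie above every ligand, and *Fgfr4* lies lowest in controls.

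The 4 receptor genes together were thus mostly *Fgfr2* and *Fgfr1* in both genotypes. *Fgfr2* made up 73.1% ± 1.57 of their summed CPM per kb in controls and 72.3% ± 1.19 in cKO uteri (SD, n = 4). *Fgfr1* made up 25.1% ± 1.55 and 25.3% ± 0.96. *Fgfr3* and *Fgfr4* were minor, at 1.14% ± 0.019 and 0.668% ± 0.092 in controls and at 1.40% ± 0.445 and 0.987% ± 0.141 in cKO uteri.

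Promoter sequence is shown because CG-rich promoters are where H3K27me3 is typically found. The genes are *Fgfr4* and *Fgf10*, whose groups did not overlap in the comparison that follows, and *Fgf18*, the most abundant ligand per kb. RefSeq (GRCm38.p6) gave promoters for 8 of the 10 genes. Each line holds the 250 bases before the first transcribed base, 5′ to 3′ on the gene's own strand, with every CG in capitals. The *Fgfr4* stretch is chr13:55152568-55152817 (plus strand), the *Fgf10* stretch is chr13:118714449-118714698 (plus strand), and the *Fgf18* stretch is chr11:33147401-33147650 (minus strand).
Fgfr4: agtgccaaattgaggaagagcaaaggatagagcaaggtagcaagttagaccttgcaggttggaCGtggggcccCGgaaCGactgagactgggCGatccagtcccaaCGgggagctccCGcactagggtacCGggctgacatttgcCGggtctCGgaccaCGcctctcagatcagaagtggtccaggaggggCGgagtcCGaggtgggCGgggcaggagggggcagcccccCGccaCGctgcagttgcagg
Fgf10: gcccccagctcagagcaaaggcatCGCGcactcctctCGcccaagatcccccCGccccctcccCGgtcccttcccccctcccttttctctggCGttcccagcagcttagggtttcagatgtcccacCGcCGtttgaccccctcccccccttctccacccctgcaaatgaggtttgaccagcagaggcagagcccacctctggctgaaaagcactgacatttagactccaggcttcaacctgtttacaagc
Fgf18: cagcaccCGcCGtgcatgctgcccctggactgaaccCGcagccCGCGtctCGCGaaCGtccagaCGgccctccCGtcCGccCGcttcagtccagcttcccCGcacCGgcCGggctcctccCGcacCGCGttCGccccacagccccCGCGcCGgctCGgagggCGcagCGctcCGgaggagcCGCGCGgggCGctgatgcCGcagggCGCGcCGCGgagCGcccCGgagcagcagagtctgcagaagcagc
A CG on one strand is a CG on the other, so the count is the same for both. *Fgf18* held 37 CG in this stretch, a count that 2.12% of 27025 mouse promoters reach. *Fgfr4* held 15, reached by 27.5% of promoters, and *Fgf10* held 8, reached by 43.4%, where the median promoter held 6 and 91.7% held at least 1. These are counts of letters, and neither H3K27me3 nor DNA methylation was measured in these libraries.

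To determine whether loss of EZH2 in the mesenchyme altered FGF transcripts, the 4 cKO libraries were compared with the 4 control libraries. None of the 10 genes changed at an adjusted p under 0.05 in edgeR's quasi-likelihood test, where 5.34% of the 16658 genes tested did (2.62% higher and 2.71% lower in cKO uteri), and none was differentially expressed (also over 2-fold, 1.30% of genes tested). All 10 passed the filter on low counts. At an unadjusted p under 0.05 there were 2, *Fgfr4* and *Fgf10*, both higher in cKO uteri, beside 21.2% of all genes tested. The same genes were the 2 of 10 whose groups did not overlap, beside 12.3% of all genes (5.9% with cKO higher). DESeq2 called 1 of the 10, *Fgfr4*, with an adjusted p of 0.0356, and limma-voom called 0, beside 9.25% and 4.98% of all genes tested. The fitted change was above 0 for 9 of the 10 genes, all but *Fgf18*, against 50.1% of all genes tested, and their median log2 fold change was 0.12, against 0.00044 over all genes. Some marker lists of cell types had similar counts above 0 and medians, 13 of 14 for epithelium (0.12), 8 of 9 for smooth muscle (0.11) and 7 of 8 for endothelium (0.20). Fat (8 of 8), skeletal muscle (6 of 7) and mesothelium (4 of 5) also lay mostly above 0, with medians of 3.36, 0.80 and 0.18. Other lists did not, with 6 of 11 for stroma (0.046), 3 of 8 for macrophages (-0.10) and 2 of 6 for ovary and oviduct (-0.12). Without control replicate 2 the fitted change was above 0 for 7 of the 10 FGF genes and their median was 0.032. Without cKO replicate 4 it was also above 0 for 7, with a median of 0.12.

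**Figure D2:**
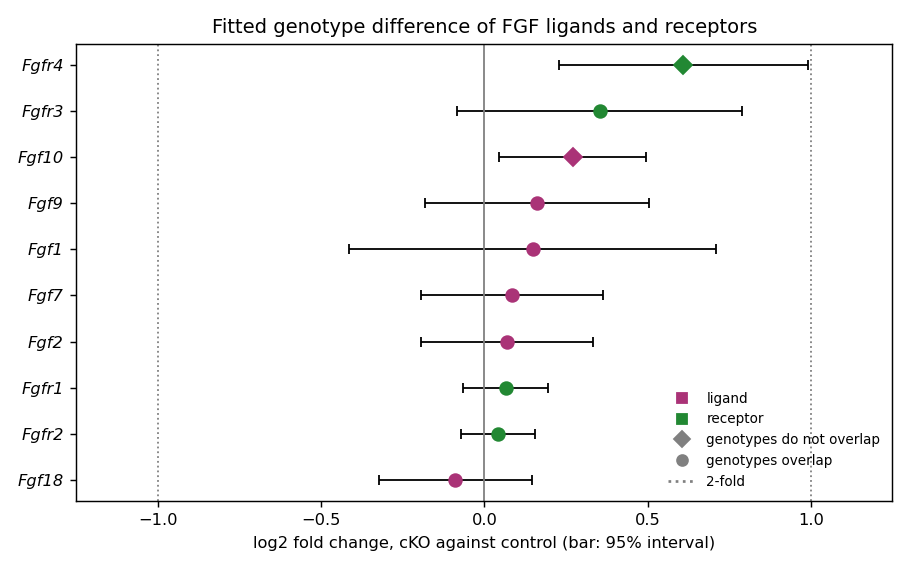
Log2 fold change of each gene, cKO against control (n = 4 each), with its 95% confidence interval from edgeR. The intervals of *Fgfr4* and *Fgf10* lie above 0, the other 8 include 0, and every interval lies below a 2-fold increase.

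*Fgfr4* (Entrez 14186, chr13:55152818-55168759, GRCm38.p6), the least abundant receptor gene, encodes a receptor best known for its role with FGF15 in the liver. Controls 1 to 4 had 1.86, 1.97, 1.64 and 2.42 CPM, and cKO replicates 1 to 4 had 3.07, 2.91, 3.54 and 2.56 CPM. Every cKO value lay above every control value, although the nearest, 2.56 and 2.42 CPM, were close. The log2 fold change was 0.61 with an SE of 0.18 and a 95% interval of 0.23 to 0.99, which is 1.53-fold (1.17 to 1.99), with an adjusted p of 0.0661 in edgeR. Unadjusted, edgeR gave p = 0.00443 and the two-sided exact permutation test 0.0286, the smallest p that 4 against 4 allows. Any gene whose groups do not overlap gets this permutation p, so it adds nothing to the lack of overlap. The values rest on 46 to 115 reads per library, so the depth limits their precision more than for any other gene of the 10. As a share of the receptor CPM per kb, *Fgfr4* lay between 0.577% and 0.796% in controls and between 0.838% and 1.18% in cKO uteri. Leaving out cKO replicate 4 gave a log2 fold change of 0.68 (adjusted p = 0.0339, edgeR), and DESeq2 on all 8 libraries passed the threshold as well, as given above. Its log2 fold change was 0.52 without cKO replicate 3, 0.40 with a fat marker score as a covariate and 0.37 with cKO replicate 4 as the sole cKO library (adjusted p = 0.172, 0.816 and 0.937, edgeR). cKO replicate 4, whose fat markers summed to 16.5 CPM, had the lowest *Fgfr4* of the cKO libraries, 2.56 CPM from 73 reads. The nearest control, replicate 4, had 2.42 CPM from 88 reads. Markers of skeletal muscle, a tissue whose precursors express *Fgfr4*, summed to 57.3 to 93.8 CPM in controls and 57.5 to 83.5 CPM in cKO uteri. Most of each sum was *Acta1* (39.7 to 70.1 CPM in controls and 33.1 to 51.6 CPM in cKO uteri), with a log2 fold change of -0.13. Of the 12 markers, 7 were tested, and 6 of the 7 had a fitted change above 0 (median 0.80). In cKO uteri 3 were called higher, *Myh3* among them, beside 2.62% of all genes tested. Under the filter, *Myog* had 0 to 0.039 CPM in controls and 0.185 to 1.36 CPM in cKO uteri. *Pax7* had no count in any library, and *Myod1* had none in controls and 0.123 to 0.272 CPM in cKO uteri. The part of skeletal muscle in the *Fgfr4* result was not tested.

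*Fgf10* (Entrez 14165, chr13:118714699-118792573), the mesenchymal ligand needed for budding of lung and mammary epithelium, was nearly the same in all cKO libraries. Controls had 16.9, 18.2, 13.1 and 13.8 CPM, and cKO uteri had 18.7, 19.3, 18.36 and 18.35 CPM. The highest control thus reached 18.2 CPM, just under the lowest cKO value, and the cKO values differed by 1.05-fold between highest and lowest against 1.38-fold in controls. The log2 fold change was 0.27 with an SE of 0.10 and a 95% interval of 0.05 to 0.50, with an adjusted p of 0.155 in edgeR. Unadjusted, edgeR gave p = 0.0220 and the exact permutation test 0.0286.

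**Figure D3:**
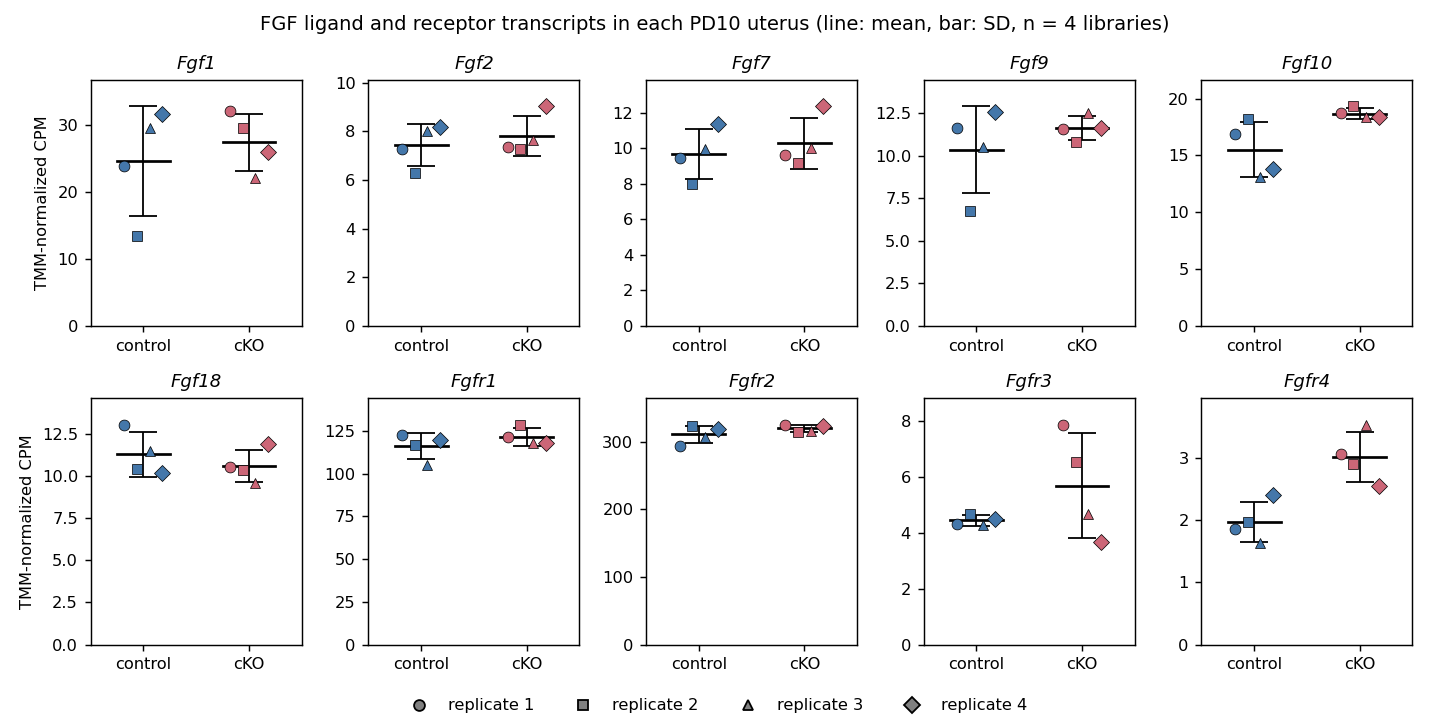
Normalized CPM of each of the 10 genes in each library, 1 panel per gene with its axis from 0, with the line at the mean and the bar at ± SD (n = 4 libraries per genotype). Groups do not overlap in the *Fgfr4* and *Fgf10* panels, and cKO replicates 1 and 2 stand above the other libraries in the *Fgfr3* panel.

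*Fgf7*, also called keratinocyte growth factor, is the other ligand that acts on the epithelial form of FGFR2. It stood at 9.43, 7.97, 9.95 and 11.3 CPM in controls and at 9.59, 9.17, 10.0 and 12.4 CPM in cKO uteri. The groups overlapped almost fully, and the log2 fold change was 0.085 with a 95% interval of -0.19 to 0.36 (-0.014 without cKO replicate 4, 0.17 without control replicate 4 and 0.43 with a fat marker score as a covariate). Unlike *Fgf10*, its highest value in each genotype was that of replicate 4. The interval for *Fgf7* contains the estimate for *Fgf10*, and the difference between both ligands was not tested.

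*Fgf18*, a ligand best known from skeletal growth and lung, was the only one of the 10 with a fitted change below 0. Controls had 13.1, 10.4, 11.5 and 10.2 CPM, and cKO uteri had 10.6, 10.4, 9.61 and 11.9 CPM. The values interleaved, with control replicate 1 highest and cKO replicate 3 lowest, and the log2 fold change was -0.089 with a 95% interval of -0.32 to 0.15 (-0.011 without control replicate 1 and -0.15 without cKO replicate 4). Its sign turned with a fat marker score as a covariate (0.10) and with cKO replicate 4 as the sole cKO library (0.079).

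*Fgf2*, basic FGF, which lacks a classical secretion signal, ranged from 6.31 to 8.18 CPM in controls and from 7.26 to 9.04 CPM in cKO uteri. Its log2 fold change was 0.069 with a 95% interval of -0.19 to 0.33 (-0.00073 without control replicate 2, -0.0063 without cKO replicate 4 and 0.33 with the fat score). Of its exon bases, 640 (9.81%) are shared with *Nudt6*, which lies on the opposite strand. Libraries were made with a stranded kit, but the strand setting of the counting is not given in the sources used here, so reads of both genes may be mixed in this count.

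*Fgf1*, acidic FGF, which binds all 4 receptors, and *Fgf9*, which in other organs passes from epithelium or mesothelium to mesenchyme, varied more between control libraries than between genotypes. *Fgf1* had 23.9, 13.3, 29.5 and 31.6 CPM in controls and 32.0, 29.5, 22.1 and 25.9 CPM in cKO uteri. *Fgf9* had 11.6, 6.73, 10.5 and 12.5 CPM in controls and 11.6, 10.8, 12.5 and 11.6 CPM in cKO uteri. Control replicate 2 was lowest of all 8 libraries for both genes, and the controls spanned 2.37-fold for *Fgf1* and 1.86-fold for *Fgf9*. The same library had the lowest sum over the 5 mesothelium markers, 205 CPM against 261 to 300 CPM in the other 7 libraries. In it *Msln* stood at 9.44 CPM, whereas *Wt1* of the same list was not low (152 CPM). It also had the lowest epithelium sum (1515 CPM) and the highest smooth muscle (10042 CPM), skeletal muscle (93.8 CPM) and macrophage (254 CPM) sums. The part of these cell types in the levels of *Fgf1* and *Fgf9* was not tested. The log2 fold changes were 0.15 for *Fgf1* (95% interval -0.41 to 0.71) and 0.16 for *Fgf9* (-0.18 to 0.50), and without control replicate 2 they were -0.053 and 0.0056.

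*Fgfr2* (Entrez 14183, chr7:130162451-130266808), whose epithelial form receives FGF7 and FGF10, had the smallest span of the 10 genes in cKO uteri (1.04-fold). In controls its span was 1.10-fold, beside 1.09-fold for *Fgfr3*. Controls had 295, 323, 307 and 320 CPM, and cKO uteri had 325, 314, 316 and 324 CPM. The groups overlapped, and the log2 fold change of 0.041 had a 95% interval of -0.072 to 0.15, which corresponds to 0.951-fold to 1.11-fold. *Fgfr1*, the main receptor gene of mesenchyme, had 123, 117, 105 and 120 CPM in controls and 121, 129, 117.9 and 118.1 CPM in cKO uteri. Its log2 fold change was 0.065 with a 95% interval of -0.066 to 0.19, which corresponds to 0.956-fold to 1.14-fold. These small values fell to 0.015 for *Fgfr2* without control replicate 1 and to 0.020 for *Fgfr1* without control replicate 3.

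*Fgfr3* (Entrez 14184, chr5:33721724-33737068), known for restraining bone growth, was tight in controls and spread out in cKO uteri. Controls had 4.32, 4.68, 4.28 and 4.50 CPM, a 1.09-fold span. In cKO replicates 1 to 4 the values were 7.88, 6.53, 4.68 and 3.68 CPM, a 2.14-fold span that reached both above and below all controls. The log2 fold change was 0.35 with an SE of 0.20 and a 95% interval of -0.08 to 0.79, with an adjusted p of 0.337 in edgeR. It was 0.16 without cKO replicate 1 and 0.51 without cKO replicate 4 (adjusted p = 0.702 and 0.0713, edgeR). cKO replicate 4, with the lowest *Fgfr3*, was also the cKO library with fat markers at the control level. With the fat marker score as a covariate the log2 fold change was -0.41, and with cKO replicate 4 as the sole cKO library it was -0.27, neither past the threshold. The score sets 3 of the 4 cKO libraries far from all controls, so it and the genotype can hardly be told apart. Of the exon bases of *Fgfr3*, 437 (9.93%) lie opposite *G630022F23Rik*.

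**Figure D4:**
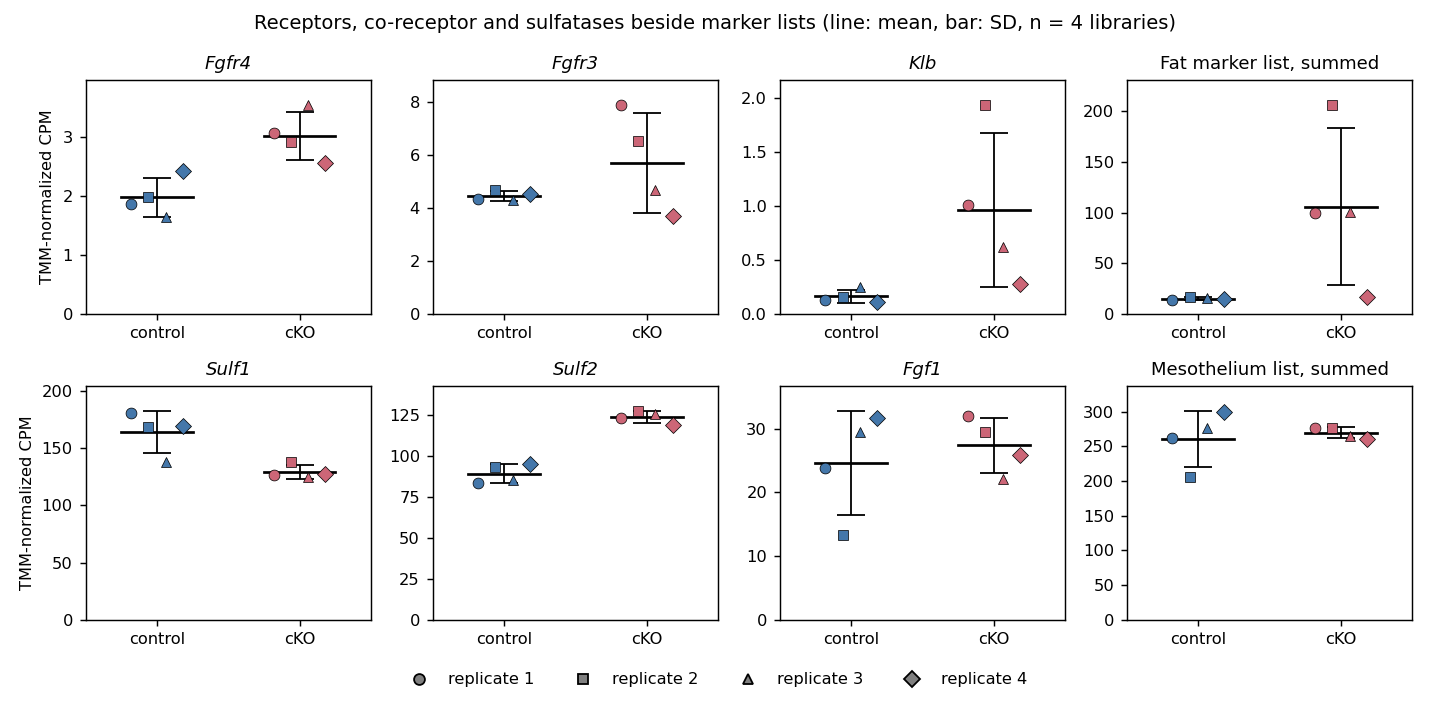
Normalized CPM in each library for *Fgfr4*, *Fgfr3*, *Klb*, *Sulf1*, *Sulf2* and *Fgf1*, beside the summed levels of the fat and mesothelium markers, with the line at the mean and the bar at ± SD (n = 4 libraries per genotype). cKO replicate 4 (diamond) lies with the controls for the fat sum and below them for *Fgfr3*, whereas it stays on the cKO side for *Sulf1* and *Sulf2*, and control replicate 2 (square) is lowest for *Fgf1* and the mesothelium sum.

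Next, the other genes of FGF signaling were counted, from 7 lists grouped by role. Of 92 genes, 80 passed the filter on low counts and 6 of these changed, 3 higher (*Klb*, *Sulf2* and *Spred3*) and 3 lower (*Flrt3*, *Sulf1* and *Extl3*), which is to be read beside 5.34% of all genes tested. Only *Klb* was also over 2-fold. At an unadjusted p under 0.05 there were 29, and groups did not overlap for 10 of the 80, beside 21.2% and 12.3% of all genes tested.

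**Figure D5:**
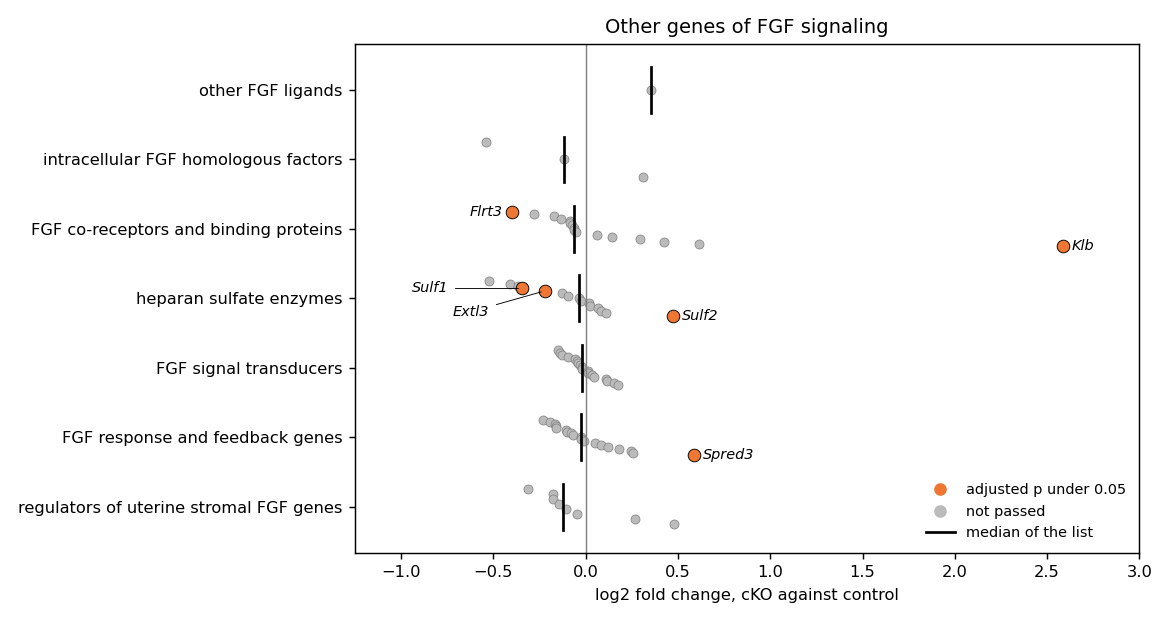
Log2 fold change (cKO against control) of each tested gene in the 7 lists, with the median of each list as a vertical bar and genes at an adjusted p under 0.05 in orange and named. List medians with more than 3 tested genes lie between -0.13 and -0.02, and *Klb* at 2.59 lies apart from the others.

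Of the 12 other secreted FGF ligands, only *Fgf16* passed the filter, at 4.30 ± 0.572 CPM in controls and 5.51 ± 1.00 CPM in cKO uteri (adjusted p = 0.220, edgeR). The remaining 11 did not pass, and *Fgf4*, *Fgf6*, *Fgf8* and *Fgf20* had no count in any library. A count of 0 is below the level of 3 counts, which was 0.0824 to 0.1165 CPM depending on the library. The 6 ligands described above were therefore, with *Fgf16*, the secreted FGFs detected at this depth over the filter.

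Among 16 co-receptors and FGF-binding proteins, all tested, 1 rose and 1 fell (2.62% and 2.71% of all genes tested), with a median log2 fold change of -0.06. At an unadjusted p under 0.05 there were 8 of the 16, 4 in each direction, beside 21.2% of all genes tested. *Klb* encodes beta-klotho, which pairs with FGFR1 in fat and with FGFR4 in liver to bind endocrine FGFs. It had 0.126, 0.155, 0.250 and 0.110 CPM in controls and 1.01, 1.94, 0.616 and 0.280 CPM in cKO uteri. The cKO values all lay above the controls but were spread widely and rested on few reads (4 to 58 over the 8 libraries), and the log2 fold change was 2.59 with an SE of 0.58 (adjusted p = 0.0256, edgeR). cKO replicate 2, which was highest for *Klb*, also had the highest fat sum, and cKO replicate 4 was lowest for both. With the fat score as a covariate the log2 fold change of *Klb* was 0.24, and with cKO replicate 4 as the sole cKO library it was 0.82, neither past the threshold.

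*Flrt3* encodes a membrane protein that binds FGFR1 and promotes its signaling. It had 29.7, 33.0, 28.3 and 29.0 CPM in controls and 21.2, 22.6, 23.3 and 23.8 CPM in cKO uteri. The groups were clearly apart, with cKO replicate 4 nearest to the controls, and the log2 fold change was -0.40 with an SE of 0.07 (adjusted p = 0.00651, edgeR).

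Among 15 enzymes that build or trim heparan sulfate, the sugar chain on which FGFs meet their receptors, 1 rose and 2 fell (5.34% of all genes tested changed), with a median log2 fold change of -0.03. At an unadjusted p under 0.05 there were 6 of the 15, 1 higher and 5 lower, beside 21.2% of all genes tested. The pair of extracellular endosulfatases, which remove sulfate from the finished chain, went in opposite directions. *Sulf2* had 83.2, 93.1, 85.4 and 95.3 CPM in controls and 123, 127, 125 and 119 CPM in cKO uteri, with every cKO library far above the controls and a log2 fold change of 0.47 with an SE of 0.06 (adjusted p = 0.000532, edgeR). *Sulf1* had 181, 168, 138.4 and 169 CPM in controls and 127, 138.3, 125 and 128 CPM in cKO uteri. The highest cKO value of *Sulf1* lay just under the lowest control, and the log2 fold change was -0.35 with an SE of 0.08 (adjusted p = 0.0215, edgeR). *Extl3*, whose product starts the heparan sulfate chain, fell from 214, 235, 227 and 220 CPM to 187, 181, 201 and 199 CPM, a log2 fold change of -0.22 with an SE of 0.06 (adjusted p = 0.0381, edgeR).

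None of the 18 tested signal transducers, the adaptor genes *Frs2* and *Grb2* among them, changed, and their log2 fold changes lay between -0.15 and 0.17; 4 had an unadjusted p under 0.05, beside 21.2% of all genes tested. Of 19 response and feedback genes, 1 changed, beside 5.34% of all genes tested. *Spred3*, an inhibitor of RAS signaling, had 6.12, 7.27, 7.06 and 5.82 CPM in controls and 11.4, 11.8, 8.93 and 7.25 CPM in cKO uteri, with an overlap of cKO replicate 4 with the controls and a log2 fold change of 0.59 with an SE of 0.16 (adjusted p = 0.0468, edgeR). With the fat score as a covariate that value was 0.02, and with cKO replicate 4 as the sole cKO library it was 0.15, neither past the threshold.

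At an unadjusted p under 0.05 there were 5 of the 19 response and feedback genes, 2 higher and 3 lower, beside 21.2% of all genes tested. *Dusp6*, a feedback phosphatase, had 47.2, 50.3, 44.0 and 39.9 CPM in controls and 51.5, 52.4, 56.6 and 53.9 CPM in cKO uteri, groups that did not overlap, and its log2 fold change of 0.24 had an adjusted p of 0.0772 in edgeR. The log2 fold changes of the Sprouty genes, feedback inhibitors of receptor tyrosine kinases, were -0.03 for *Spry1*, -0.07 for *Spry2* and 0.05 for *Spry4*. The ETS factors *Etv4* and *Etv5* had log2 fold changes of 0.25 and -0.01. Of 8 regulators of stromal FGF genes in the uterus, 0 changed in edgeR and 4 had an unadjusted p under 0.05 (21.2% of all genes tested), and *Hand2*, the restraint on stromal FGFs named above, had a log2 fold change of -0.18 (adjusted p = 0.190, edgeR).

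The 6 changed genes differed in how far they rested on single libraries. *Flrt3* and *Sulf2* passed the threshold whichever library was left out. With limma-voom 4 of the genes in the lists changed, and *Klb* (adjusted p = 0.0661) and *Spred3* (adjusted p = 0.0669) did not pass; *Spred3* also missed the threshold in edgeR without the robust setting (adjusted p = 0.0513). *Extl3* lost the call without any one library except cKO replicate 4, with log2 fold changes of -0.25 to -0.19. *Sulf1* lost it without control replicate 1 (-0.30), control replicate 4 (-0.33), cKO replicate 1 (-0.34) or cKO replicate 3 (-0.33). *Klb* lost it without control replicate 1 (2.49), control replicate 4 (2.42), cKO replicate 1 (2.56) or cKO replicate 2 (1.98). *Spred3* lost it without control replicates 1 (0.55), 3 (0.62) or 4 (0.53) or cKO replicates 1 (0.51), 2 (0.49) or 3 (0.63). With cKO replicate 4 as the sole cKO library, which assumes that it varies like the others, none of the 6 passed; *Sulf2* (0.42), *Flrt3* (-0.33), *Sulf1* (-0.36) and *Extl3* (-0.17) then had log2 fold changes of the same direction. With the fat score as a covariate none of the 6 passed either, where *Sulf2* (0.40), *Flrt3* (-0.34), *Sulf1* (-0.37) and *Extl3* (-0.16) had log2 fold changes of the same direction.

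Among the cell types a whole uterus can hold, the fat list had the largest median log2 fold change (3.36), with 8 of 11 markers tested, all 8 with a fitted change above 0 and 2 called higher (*Pparg* and *Adrb3*). Of the skeletal muscle list, 3 of 7 tested were called, all higher, as given above. These counts and those that follow stand beside 5.34% of all genes tested that were called and 21.2% that had an unadjusted p under 0.05. Of the stroma list, 3 of 11 were called (*Col3a1* higher, *Hoxa10* and *Hoxa11* lower). An unadjusted p under 0.05 was reached by 8 of 8 fat, 5 of 7 skeletal muscle and 5 of 11 stroma markers. None was called among 14 epithelium, 9 smooth muscle, 8 endothelium, 8 macrophage and 5 mesothelium markers, of which 4, 2, 3, 0 and 0 had an unadjusted p under 0.05. Of 10 ovary and oviduct markers, 6 were tested, 0 were called and 3 had an unadjusted p under 0.05. The part of these cell types in the levels of the FGF ligands and receptors was not tested beyond the values given above.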

How the data were processed

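RNA of whole PD10 uteri was sequenced as TruSeq stranded mRNA libraries, 4 per genotype. The submitters' notes and the methods name Trimmomatic and FastQC for the reads, HISAT2 for alignment to GRCm38 and featureCounts for counting, all run by the authors; versions, annotation and strand setting are not given in the sources used here. The deposited values used are raw read counts per Entrez gene. The authors' edgeR table (fold changes, average levels and p-values) was read for gene symbols only, and their normalized log2 table was not used.

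Counts were TMM-normalized in edgeR 4.0.16 (R 4.3.3, limma 3.58.1). Genes over 0.2 CPM in at least 4 libraries (16658) were tested with a robust quasi-likelihood fit, control against cKO, without covariates, with Benjamini-Hochberg adjustment over all of them. A gene changed at an adjusted p under 0.05, and was differentially expressed if also over 2-fold. The SE was derived from the F statistic and the fold change. Exact permutation tests used log2(CPM + 0.1) and 70 arrangements. The exon length was the union of protein-coding GENCODE transcripts at the RefSeq locus. On simulated counts of 16550 genes, 200 of 200 changes of 3-fold were recovered with 12 false calls. No 2 libraries agreed within sampling noise. The level of 3 counts (0.0824 to 0.1165 CPM) covers counting error only. It is not stated whether each library came from a single mouse; p-values measure the spread between libraries.

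The 10 genes and all lists were chosen with earlier results of these data known. Named beside them were the changed genes of each FGF list (at most 6), the Sprouty genes, *Dusp6*, *Etv4*, *Etv5* and *Hand2*, and at most 3 markers per cell type. Other named genes, such as *Fgf16*, *Fgf12*, *Acta1* and *Myog*, were chosen after their values were seen. Genes with a similar profile were to be named for changed ligands or receptors only, and there was none. Alternatives were DESeq2 1.42.0, limma-voom, other scalings and filters, a replicate block, a fat marker score as covariate and leaving out libraries; running them on the 6 changed FGF-list genes and on the count and median of the 10 fitted changes was chosen after seeing the data.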

Additional observations from a re-analysis of the deposited data

How the results depend on the processing

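Over 180 alternative values of the 10 log2 fold changes, 170 kept direction and side of the threshold, 2 (both *Fgfr4*) passed it and 8 changed sign without passing it. All 10 genes lay short of the threshold in the main fit, and the alternatives share most of their data. The 170 therefore do not measure how firm the results are. The sign changes were *Fgf1* without control replicate 2 (-0.053; 0.29 at most when 1 library was left out), *Fgf2* without control replicate 2 (-0.00073) or cKO replicate 4 (-0.0063; 0.12 at most), *Fgf7* without cKO replicate 4 (-0.014; 0.17 at most), *Fgf18* with the fat score (0.10) or with cKO replicate 4 alone (0.079), and *Fgfr3* with the fat score (-0.41) or with cKO replicate 4 alone (-0.27). With the fat score and with cKO replicate 4 alone, *Fgf7* moved from 0.085 to 0.43 and 0.35 and *Fgf2* from 0.069 to 0.33 and 0.28, without passing the threshold. *Fgfr4* stayed between 0.37 and 0.73 (adjusted p 0.0339 to 0.937) and *Fgf10* between 0.20 and 0.35 (0.0522 to 0.925). The 0 of 10 changed became 1 with DESeq2 and 0 to 1 when 1 library was left out (1 without cKO replicate 4).

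The 6 changed genes of the FGF lists became 13 with DESeq2, 10 with a replicate block, 0 with the fat score (folds as given above) and 0 with cKO replicate 4 alone, and ranged from 2 (without control replicate 1, control replicate 4 or cKO replicate 1) to 10 (without control replicate 2 or cKO replicate 4) when 1 library was left out; without cKO replicate 2 there were 3. The 889 changed genes in all became 1510 with DESeq2, 43 with the fat score, 38 with cKO replicate 4 alone and 217 when also over 2-fold, and ranged from 409 (without control replicate 1) to 1812 (without cKO replicate 4). Fewer genes are expected past the threshold with 1 cKO library by construction; otherwise the cause was not tested. *Klb* could not be tested with a filter of CPM over 1.

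Replicate numbers did not pair the samples: deviations of same-numbered libraries correlated at 0.04, 0.13, -0.03 and 0.22, and only replicate 4 correlated best with its own number. With the block, 0 of the 10 genes and 7.44% of all genes changed. Few reads limit the precision of *Fgfr4* (46 to 115 per library) and *Klb* (4 to 58).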

Other observations

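The intracellular FGF homologous factors, which share the FGF fold but are not secreted and bind sodium channels in neurons and muscle, were measured in the same libraries. *Fgf14* did not pass the filter on low counts, and none of the 3 tested changed in edgeR, with 1 at an unadjusted p under 0.05, beside 5.34% and 21.2% of all genes tested. *Fgf12* had 6.91, 7.16, 9.06 and 9.72 CPM in controls and 4.62, 4.45, 6.44 and 7.08 CPM in cKO uteri, with 1 cKO library inside the control range, a log2 fold change of -0.54 with an SE of 0.17 and an adjusted p of 0.0930 (edgeR). *Fgf11* had a log2 fold change of 0.31 and *Fgf13* of -0.12, with overlapping groups.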
